A study of Homo sapiens with 14 samples.

Results

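The 10 genes described here, of the nuclear lamina and the inner nuclear membrane, were followed across 14 RNA-seq libraries of human lung fibroblasts. They are the lamin genes LMNB1, LMNB2 and LMNA, the membrane protein genes LBR, TMPO, EMD, LEMD3, SUN1 and SUN2, and BANF1. These 10 of the 54628 gene symbols in the deposited count tables were listed by name, with earlier results of these data known. All 10 passed the filter on low counts in each fit.

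The lamina is a meshwork of A-type and B-type lamin filaments that lines the inner face of the nuclear envelope and anchors peripheral chromatin. Proteins of the inner nuclear membrane bind the lamins, chromatin or both, and BANF1 (barrier-to-autointegration factor) links double-stranded DNA to those with a LEM domain, among them emerin, LEMD3 and products of TMPO. Loss of lamin B1 is a widely used marker of senescent fibroblasts.

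All cells were IMR90, a line of primary lung fibroblasts grown from the isolates I79 and I83, and each of 7 groups had 2 libraries. WT and siHMGB2 (HMGB2 knocked down by siRNA) received no treatment. The other groups were made senescent with 10 µM inflachromene (ICM), a compound known to bind HMGB1 and HMGB2, for up to 6 days. Among them, ICM 1-2 carried no knockdown, siSRRM2 is labelled as a knockdown of the splicing-associated speckle protein SRRM2, and siBANF1 as a knockdown of BANF1, and these are called the first treated set. ICM 3-4 (no knockdown) and siCTCF (knockdown of the architectural protein CTCF) are called the second treated set, because their labels differ in form and give the cell line as IMR91 to IMR94 although the titles say IMR90. The untreated libraries have labels of the first form, so a difference between ICM 3-4 and WT mixes the treatment with the set and these cannot be told apart. The day of harvest is not given for single libraries. Nothing in the labels says that replicates came from separate cultures, so p-values measure the spread between these libraries, which may be technical.

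The libraries held 22336161 to 58257456 gene counts, and levels are given as CPM, the usual scaling of a gene's count by its library's sum over genes. Short structural RNAs took 3.23% to 6.12% of the counts in the 6 libraries of the first treated set and at most 0.0085% in the other 8. Reads given to no gene were 26.5% to 41.8% in the first treated set, 16.9% to 18.0% in untreated and 12.8% to 14.3% in second-set libraries. A difference between ICM 1-2 and WT thus mixes the treatment with this library make-up, and these cannot be told apart. Mitochondrial mRNA took 2.699% to 3.54% in untreated libraries and 0.0675% to 0.754% in treated ones. The 8 fibroblast markers were detected in every library, with summed levels of 17589 to 31771 CPM in untreated and 1756 to 10938 CPM in treated libraries. Summed epithelial markers, led by KRT18, were at 54.5 to 98.6 CPM in untreated and 33.2 to 212 CPM in treated libraries, with SFTPC and SFTPB at 0 throughout. Summed leukocyte markers, led by CD68, were at 39.3 to 48.1 and 56.4 to 104 CPM, with CD3E at 0 throughout, and endothelial markers summed to at most 9.72 CPM. The part of these differences in the results was not tested. Library ICM 1 and the first library labelled siBANF1 stood apart from the other treated libraries: CDKN1A, the gene of the cell cycle inhibitor p21, was at 1529 and 1520 CPM there, against 6974 to 13422 CPM in the other 8 treated libraries and 1186 to 1468 CPM in untreated ones. MKI67, a proliferation marker, was at 30.5 to 38.8 CPM in untreated libraries and at most 1.09 CPM in all treated ones.

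The targeted genes were checked first. HMGB2 had 27.7 and 28.0 CPM in WT against 3.18 and 3.52 CPM in siHMGB2, where it fell by 3.00 ± 0.25 (SE) on the log2 scale (edgeR quasi-likelihood test, Benjamini-Hochberg adjusted p = 0.0284). Treated levels of HMGB2 were 8.14 and 9.60 CPM in ICM 1-2, 9.77 and 9.52 in siSRRM2, 2.18 and 7.14 in siBANF1, 7.66 and 11.5 in ICM 3-4 and 9.58 and 13 in siCTCF. For CTCF the levels were 94.9 and 91.9 CPM with ICM 3-4 and 71.5 and 23.0 CPM with siCTCF. The 2 knockdown libraries were thus far apart, and the log2 difference of -0.95 ± 0.43 was not called. Elsewhere CTCF levels were 49.2 and 50.7 CPM in WT, 51.9 and 52.5 in siHMGB2, 30.6 and 80.0 in ICM 1-2, 82.5 and 81.8 in siSRRM2 and 37.6 and 76.8 in siBANF1. SRRM2 had 238 and 112 CPM in ICM 1-2, and 76.1 and 76.4 CPM where the label is siSRRM2. Its lowest levels, 59.0 and 17.0 CPM, were found where the label is siBANF1. The log2 differences from ICM 1-2 were -1.23 ± 0.53 under siSRRM2 and -2.16 ± 0.55 under siBANF1, and neither was called. In the remaining groups SRRM2 levels were 417 and 476 CPM in WT, 368 and 382 in siHMGB2, 658 and 846 in ICM 3-4 and 657 and 664 in siCTCF.

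BANF1 itself was not lower in the libraries labelled siBANF1. Its levels there were 17.0 and 36.7 CPM, with 13.5 and 32.7 CPM for ICM 1-2 and 34.2 and 33.3 CPM under the label siSRRM2. The log2 difference from ICM 1-2 was 0.25 ± 0.39 (edgeR quasi-likelihood test, adjusted p = 1). The names of the deposited files give these 2 knockdowns the other way round from the labels, and neither assignment has BANF1 below ICM 1-2 in both libraries. The labels are followed here, and these 4 libraries are always called by their label.

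**Figure D1:**
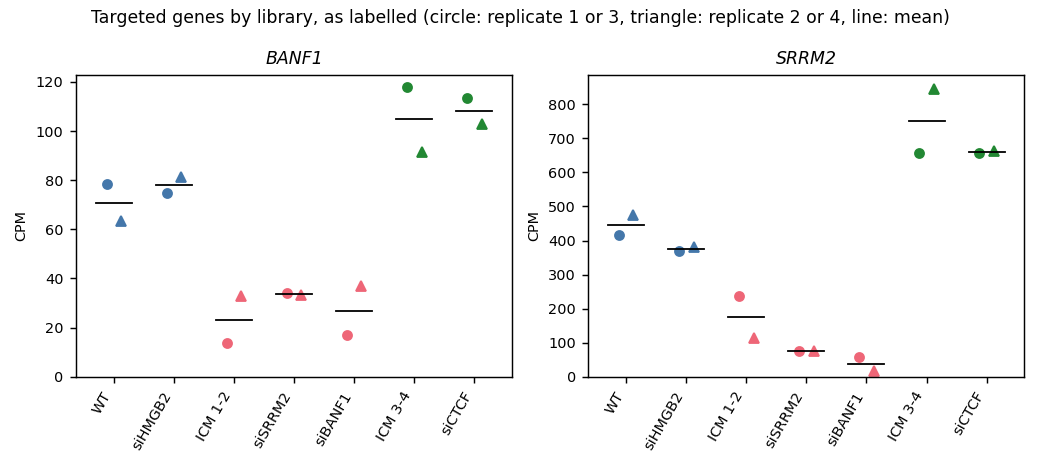
CPM of BANF1 (left) and SRRM2 (right) in each of the 14 libraries, grouped as labelled, with untreated libraries in blue, the first treated set in red and the second in green, and bars at the group means. BANF1 lies at 17.0 and 36.7 CPM under the label siBANF1, beside 13.5 and 32.7 CPM for ICM 1-2, while SRRM2 is lowest under that label.

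LMNB1 (chromosome 5, 126776623 to 126837020, plus strand, in GENCODE v29 on GRCh38) encodes lamin B1, a farnesylated lamin that stays attached to the membrane. Its transcript had 21.4 and 19.9 CPM in WT, with 18.7 and 19.7 CPM in siHMGB2. After treatment the levels were 1.54 and 2.52 CPM in ICM 1-2, 4.20 and 3.55 in siSRRM2, and 1.70 and 2.90 in siBANF1. The second set gave 4.18 and 4.18 CPM in ICM 3-4 and 4.25 and 4.03 in siCTCF. All 10 treated libraries were below all 4 untreated ones, with no knockdown at or near the untreated range, and the values rested on 67 to 812 counts. Against WT, LMNB1 fell by 3.49 ± 0.33 on the log2 scale in ICM 1-2 (0.0888 of the WT level, edgeR quasi-likelihood test, adjusted p = 0.000231) and fell by 2.50 ± 0.20 in ICM 3-4 (adjusted p = 4.37e-05). In bulk RNA, fewer cells with the transcript and less transcript per cell cannot be told apart.

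Promoter windows of LMNB1 and LMNA are shown so that the letters upstream can be compared. The first gene separated treated from untreated libraries and the second did not. Both windows are the 250 bases before a RefSeq start on GRCh38.p14, read 5′ to 3′ on the plus strand. They lie at chr5:126776373-126776622 for LMNB1 and chr1:156082323-156082572 for LMNA. Only the first start given for each gene was taken, and any other start of a gene was not searched.
LMNB1: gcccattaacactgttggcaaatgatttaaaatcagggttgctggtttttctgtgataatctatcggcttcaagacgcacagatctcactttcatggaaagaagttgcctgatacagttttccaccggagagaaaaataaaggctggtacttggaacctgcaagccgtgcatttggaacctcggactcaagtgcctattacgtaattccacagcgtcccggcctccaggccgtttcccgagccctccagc
LMNA: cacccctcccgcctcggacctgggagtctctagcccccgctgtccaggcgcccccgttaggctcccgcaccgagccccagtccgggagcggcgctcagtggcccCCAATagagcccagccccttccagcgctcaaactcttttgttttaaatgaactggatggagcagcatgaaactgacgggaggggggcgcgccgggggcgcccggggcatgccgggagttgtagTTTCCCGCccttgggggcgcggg
Capitals mark matches, on either strand, to letters known from promoters of cell cycle genes: the CHR element TTTGAA, the CCAAT box CCAAT, and the E2F sites TTTCCCGC and TTTGGCGC. The LMNB1 window held none of these 4, nor the GC box GGGCGG, and LMNA held CCAAT 146 bases and TTTCCCGC 23 bases before the start, with a GC box on the other strand overlapping the end of the latter. Of 27305 RefSeq promoters of this length, 13.57% held TTTGAA, 33.04% CCAAT, 1.42% TTTCCCGC, 0.55% TTTGGCGC and 42.31% GGGCGG. Among the 9 of the 10 genes found in the RefSeq table, 2 held TTTGAA (LMNB2 and SUN2), 5 CCAAT, 2 TTTCCCGC (LMNA and LEMD3) and 6 GGGCGG. A match is a run of letters and shows no binding.

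LMNB2 (19, 2427638 to 2456996, minus strand) encodes lamin B2, the second B-type lamin, and did not follow LMNB1. WT had 108 and 102 CPM, and siHMGB2 91.4 and 126 CPM. First-set levels were 65.4 and 116 CPM in ICM 1-2, 115 and 118 in siSRRM2 and 58.5 and 98.3 in siBANF1. Scaled by library total, the 4 second-set libraries were all above the untreated range, at 166 and 136 CPM in ICM 3-4 and 167 and 135 in siCTCF. With the TMM factor that the tests also use, group means were 113 CPM in WT, 123 in siHMGB2 and 139 in ICM 3-4 and in siCTCF. Under that scaling the second-set and untreated ranges overlapped. The 2 lowest of the 14 libraries were ICM 1 and the first siBANF1 library, and first-set and untreated ranges overlapped. The log2 difference from WT was -0.36 ± 0.31 in ICM 1-2 (edgeR quasi-likelihood test, adjusted p = 0.465) and 0.33 ± 0.21 in ICM 3-4 (adjusted p = 0.215), neither past the threshold of 0.05.

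LMNA (1, 156082573 to 156140089, plus strand) encodes the A-type lamins A and C, whose transcripts share one count here. WT had 400 and 434 CPM, and siHMGB2 441 and 619 CPM. ICM 1-2 gave 332 and 319 CPM, siSRRM2 355 and 359, and siBANF1 381 and 358, while ICM 3-4 gave 486 and 572 and siCTCF 435 and 574. Every first-set library was below every untreated one, and the second set overlapped the untreated range. The log2 difference from WT was -0.49 ± 0.25 in ICM 1-2 (edgeR quasi-likelihood test, adjusted p = 0.218) and 0.14 ± 0.20 in ICM 3-4 (adjusted p = 0.56).

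**Figure D2:**
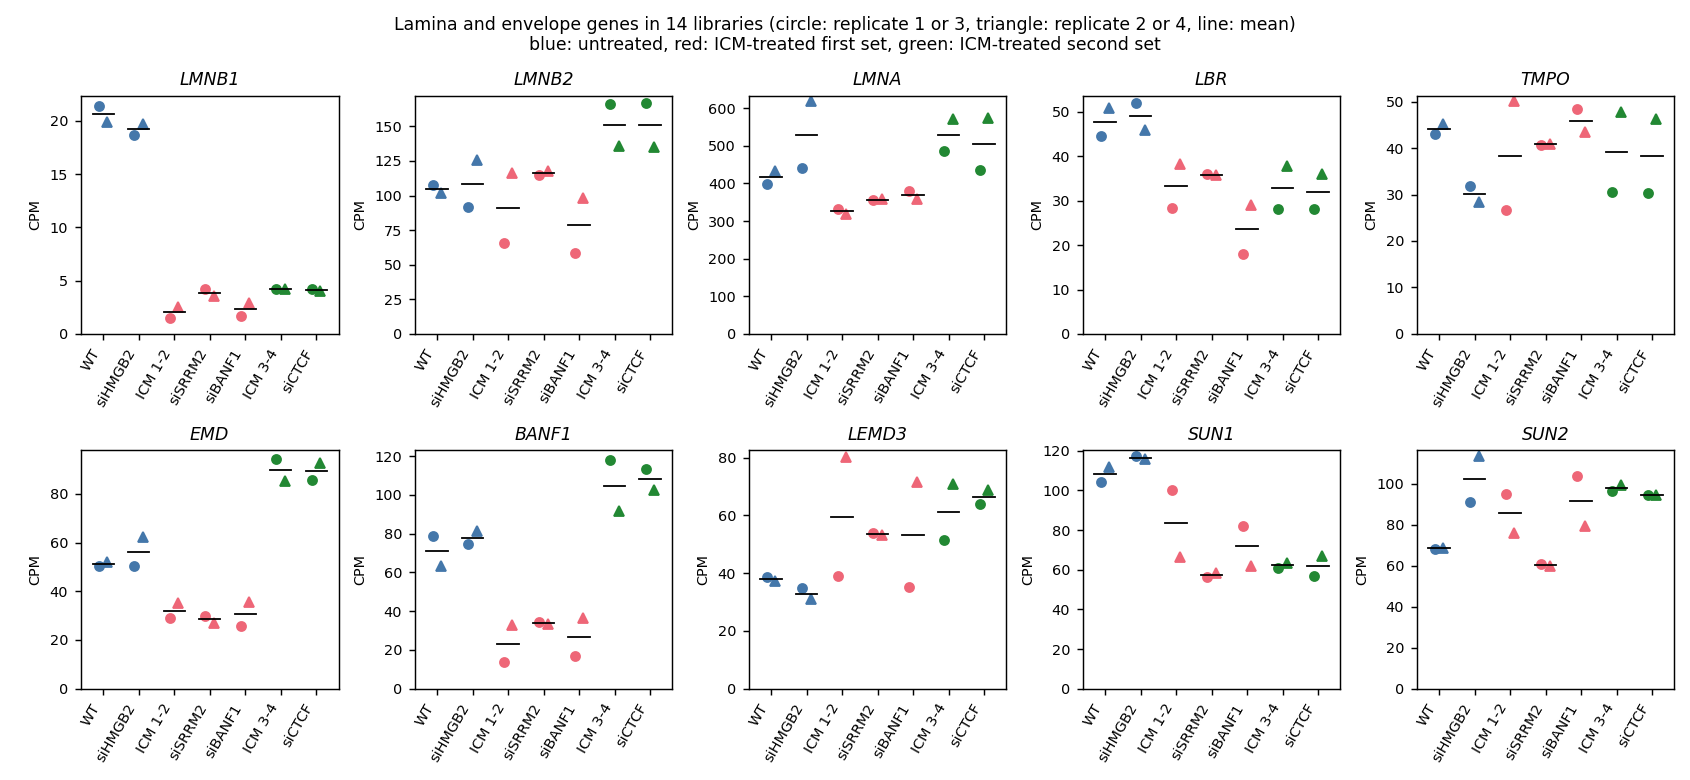
CPM of the 10 genes in each of the 14 libraries, with untreated libraries in blue, the first treated set in red, the second treated set in green and bars at the group means. LMNB1 separates all treated from all untreated libraries (at most 4.25 against at least 18.7 CPM). Scaled by library total, EMD and BANF1 are below the untreated libraries in the first set and above them in the second. With the TMM factor that the tests also use, the second-set and untreated ranges of BANF1 overlap.

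The balance of the lamin transcripts differed between treated and untreated libraries when taken as a ratio within each library. The log2 ratio of LMNA to LMNB1, on CPM with 0.5 added, was 4.19 to 4.94 in the 4 untreated libraries (median 4.47) and 6.24 to 7.44 in the 10 treated ones (median 6.72). That of LMNB2 to LMNB1 was 2.26 to 2.65 (median 2.31) and 4.61 to 5.27 (median 4.89). Neither pair of ranges overlapped. Per kilobase of exon, LMNA was the highest of the 10 genes in WT at 59.7 ± 3.42 CPM (SD, n = 2), followed by BANF1 at 43.1 ± 6.62, EMD at 25.3 ± 0.54 and LMNB2 at 19.3 ± 0.74. SUN2 (10.6 ± 0.029), SUN1 (9.14 ± 0.44), LBR (9.07 ± 0.85) and LEMD3 (6.83 ± 0.17) followed, and LMNB1 (5.69 ± 0.29) and TMPO (5.13 ± 0.19) were lowest, all in CPM per kilobase. In that order only SUN1 and LBR overlapped between neighbours. The length used is the union of all annotated exons of a gene, from 1645 bases for BANF1 to 11811 for SUN1. The order therefore depends on the annotation and need not hold for the transcripts present. After ICM, LMNB1 was at 0.559 ± 0.192 CPM per kilobase in ICM 1-2 and 1.15 ± 0.0009 in ICM 3-4, below each of the other 9 genes.

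**Figure D3:**
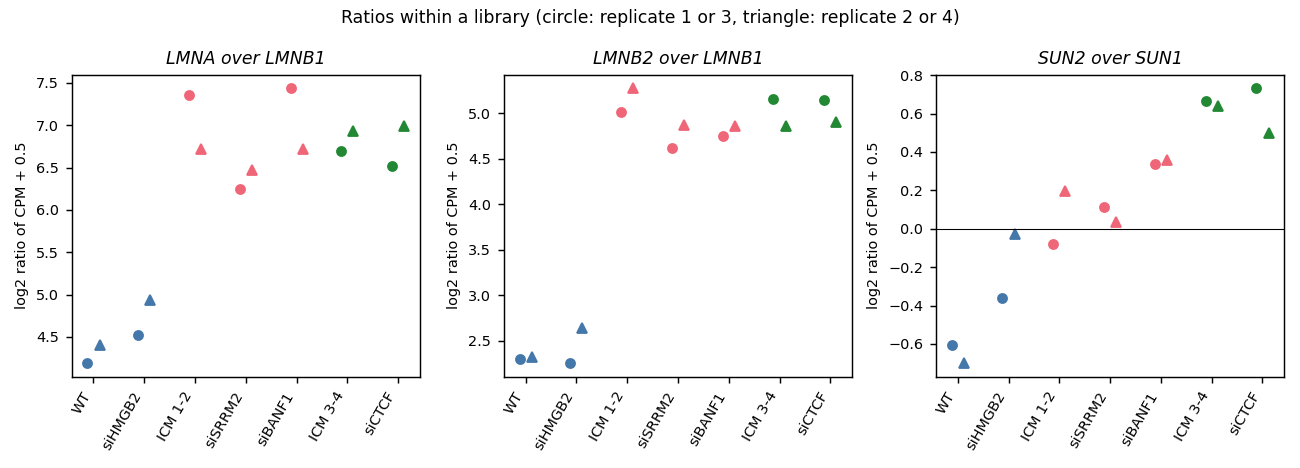
Log2 ratios of CPM + 0.5 within each library for LMNA over LMNB1, LMNB2 over LMNB1 and SUN2 over SUN1, by group, with 1 point per library. The first 2 ratios are higher in all 10 treated than in all 4 untreated libraries, and the third overlaps only between ICM 1 (-0.08) and the second siHMGB2 library (-0.03).

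Among the inner membrane proteins, LBR (1, 225401502 to 225428925, minus strand) encodes the lamin B receptor, which binds B-type lamins and heterochromatin and is also a sterol reductase. The untreated levels were 44.5 and 50.8 CPM in WT, and 52.0 and 46.0 CPM in siHMGB2. Treated levels were 28.4 and 38.2 CPM in ICM 1-2, 35.9 and 35.7 in siSRRM2, 18.1 and 29 in siBANF1, 28.0 and 37.8 in ICM 3-4 and 28.0 and 36.1 in siCTCF. As for LMNB1, all 10 treated libraries were below all 4 untreated ones. LBR fell by 0.74 ± 0.18 on the log2 scale in ICM 3-4 against WT (edgeR quasi-likelihood test, adjusted p = 0.00785), a call lost without WT 2 (-0.65, adjusted p = 0.0604). The difference in ICM 1-2 missed the threshold, at -0.66 ± 0.24 (adjusted p = 0.0933; DESeq2 adjusted p = 0.0497). The 2 estimates share the WT libraries, and their difference was -0.12 ± 0.24 (adjusted p = 0.747).

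TMPO (12, 98515512 to 98550379, plus strand) encodes the LAP2 proteins, which bind lamins and, through a LEM domain, BANF1. Its levels were 43.0 and 45.2 CPM in WT, 31.8 and 28.4 in siHMGB2, 26.6 and 50.1 in ICM 1-2, 40.7 and 40.9 in siSRRM2, 48.4 and 43.4 in siBANF1, 30.6 and 47.9 in ICM 3-4 and 30.2 and 46.3 in siCTCF. The 2 libraries of ICM 1-2 were the lowest and the highest of all 14, and treated and untreated ranges overlapped. Its log2 difference from WT was -0.36 ± 0.30 in ICM 1-2 (edgeR quasi-likelihood test, adjusted p = 0.443) and -0.38 ± 0.23 in ICM 3-4 (adjusted p = 0.194).

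EMD (X, 154379197 to 154381523, plus strand) encodes emerin, a LEM-domain protein that binds lamin A and BANF1. Untreated levels were 50.4 and 51.9 CPM in WT and 50.3 and 62.1 in siHMGB2. The first set was lower, at 29.1 and 35.0 CPM in ICM 1-2, 30.1 and 26.9 in siSRRM2 and 25.6 and 35.7 in siBANF1. The second set was higher, at 94.5 and 85.3 CPM in ICM 3-4 and 85.8 and 92.8 in siCTCF. The 3 ranges did not overlap, with the untreated libraries between the 2 treated sets. EMD fell by 0.81 ± 0.21 on the log2 scale in ICM 1-2 (edgeR quasi-likelihood test, adjusted p = 0.0329) and rose by 0.62 ± 0.15 in ICM 3-4 (adjusted p = 0.0088). The call in ICM 1-2 was lost when any 1 of its 4 libraries was left out (adjusted p = 0.0695 to 0.174), and that in ICM 3-4 when any but ICM 4 was (adjusted p of 0.0574 to 0.0662).

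BANF1 (11, 66002079 to 66004149, plus strand), the DNA-binding partner of the LEM-domain proteins, lay in the same order over untreated, first-set and second-set libraries as EMD. Untreated levels of BANF1 were 78.6 and 63.2 CPM in WT, and 74.7 and 81.4 CPM in siHMGB2. As given above, the first treated set was at 13.5 to 36.7 CPM, with ICM 1 and the first siBANF1 library lowest. In the second set ICM 3-4 had 118 and 91.6 CPM, and siCTCF 113 and 103 CPM, above every untreated library when scaled by library total. The TMM factor that the tests also use was 0.877 to 0.928 in untreated and 1.05 to 1.14 in second-set libraries. With it, group means of BANF1 were 76.8 CPM in WT, 87.8 in siHMGB2, 96.5 in ICM 3-4 and 99.15 in siCTCF. The groups were then closer, and single libraries no longer separated. The library ICM 4 had 91.6 CPM with a factor of 1.14, and the second siHMGB2 library 81.4 CPM with a factor of 0.877. BANF1 fell by 1.78 ± 0.40 on the log2 scale in ICM 1-2 against WT (edgeR quasi-likelihood test, adjusted p = 0.0173). The value in ICM 3-4 was 0.37 ± 0.19 (adjusted p = 0.131), which was not called, and without either WT library the call in ICM 1-2 was lost (adjusted p of 0.111 and 0.0686).

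Both ICM 1-2 and ICM 3-4 are labelled with ICM alone, and the difference between them was tested directly. EMD was higher in ICM 3-4 by 1.39 ± 0.22 on the log2 scale (edgeR quasi-likelihood test, adjusted p = 0.00303) and BANF1 by 2.11 ± 0.40 (adjusted p = 0.00669). These 2 of the 10 genes were called, both higher, where 8.53% of the 19126 genes tested were called higher and 19.5% in either direction. In CPM 7 genes had no overlap between these 2 groups, beside 56% of all genes. LMNB1 was 0.95 ± 0.31 higher in ICM 3-4 (edgeR adjusted p = 0.0511), just outside the threshold, and was called with relative log expression scaling (adjusted p = 0.0452) and by DESeq2 (adjusted p = 0.0103). The short structural RNA share, 3.23% to 6.12% in the first treated set, moved with this contrast, and leaving those RNAs and mitochondrial genes out of the library totals raised group mean CPM by 0.2% to 5.9%. Whether anything else that differs between the sets has a part in these values was not tested.

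LEMD3 (12, 65169571 to 65248327, plus strand) encodes MAN1, a LEM-domain protein that also restrains SMAD signalling. Its levels were 38.6 and 37.3 CPM in WT, 34.7 and 31.1 in siHMGB2, 38.9 and 80.1 in ICM 1-2, 53.8 and 53.2 in siSRRM2, 35.2 and 71.5 in siBANF1, 51.6 and 71.1 in ICM 3-4 and 63.9 and 68.7 in siCTCF. Scaled by library total, 9 of the 10 treated libraries lay above every untreated one, ICM 1 only just, and the first siBANF1 library lay within the untreated range. LEMD3 rose by 0.49 ± 0.16 on the log2 scale in ICM 3-4 (edgeR quasi-likelihood test, adjusted p = 0.0288), a call kept without ICM 3 and lost without any other library compared (adjusted p = 0.0966 to 0.165). It was also lost in the fit to all 14 libraries (0.44, adjusted p = 0.319). The value in ICM 1-2 was 0.49 ± 0.33 (adjusted p = 0.337).

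SUN1 and SUN2 encode the SUN-domain proteins of the inner membrane, which join nesprins in the LINC complexes that couple the nucleus to the cytoskeleton. SUN1 (7, 816615 to 896435, plus strand) had 104 and 112 CPM in WT, with 117 and 116 in siHMGB2. After treatment it had 100 and 66.4 CPM in ICM 1-2, 56.4 and 58.3 in siSRRM2, 82.0 and 61.9 in siBANF1, 60.7 and 63.6 in ICM 3-4 and 56.6 and 66.8 in siCTCF. All treated libraries were below all untreated ones, with ICM 1 the nearest. SUN1 fell by 1.00 ± 0.13 on the log2 scale in ICM 3-4 (edgeR quasi-likelihood test, adjusted p = 0.000339), and the value in ICM 1-2 was -0.49 ± 0.27 (adjusted p = 0.242). Their difference was -0.55 ± 0.27 (adjusted p = 0.169), and without ICM 1 the value for ICM 1-2, then ICM 2 alone, was -0.90 and called (adjusted p = 0.0447).

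SUN2 (22, 38734725 to 38794143, minus strand) showed no such separation. Its levels were 68.4 and 68.6 CPM in WT, 91.1 and 114 in siHMGB2, 94.9 and 76.1 in ICM 1-2, 61.0 and 59.6 in siSRRM2, 104 and 79.5 in siBANF1, 96.5 and 99.3 in ICM 3-4 and 94.4 and 94.6 in siCTCF. The 4 lowest libraries were those of WT and siSRRM2, and the rest lay between 76.1 and 114 CPM whether treated or not. The log2 difference from WT was 0.20 ± 0.25 in ICM 1-2 (edgeR quasi-likelihood test, adjusted p = 0.62) and 0.32 ± 0.15 in ICM 3-4 (adjusted p = 0.093). The log2 ratio of SUN2 to SUN1 was -0.70 to -0.03 in untreated libraries (median -0.48) and -0.08 to 0.73 in treated ones (median 0.35).

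Counted over the 10 genes, ICM 1-2 against WT called 3 lower (LMNB1, EMD and BANF1) and none higher, beside 6.86% of 19126 genes called lower, 6.63% higher and 13.5% called in either direction. Of the 10, 8 did not overlap in CPM between these groups, beside 57.3% of all genes. The median log2 difference was -0.49 over the 10 genes and 0.10 over all genes. In ICM 3-4 against WT, 3 were called lower (LMNB1, LBR and SUN1) and 2 higher (EMD and LEMD3), where 56.6% of 16719 genes were called, 28% lower and 28.6% higher. Groups did not overlap for 9 of the 10, beside 80.4% of all genes, so this count is near the background. The medians were 0.23 and 0.02.

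**Figure D4:**
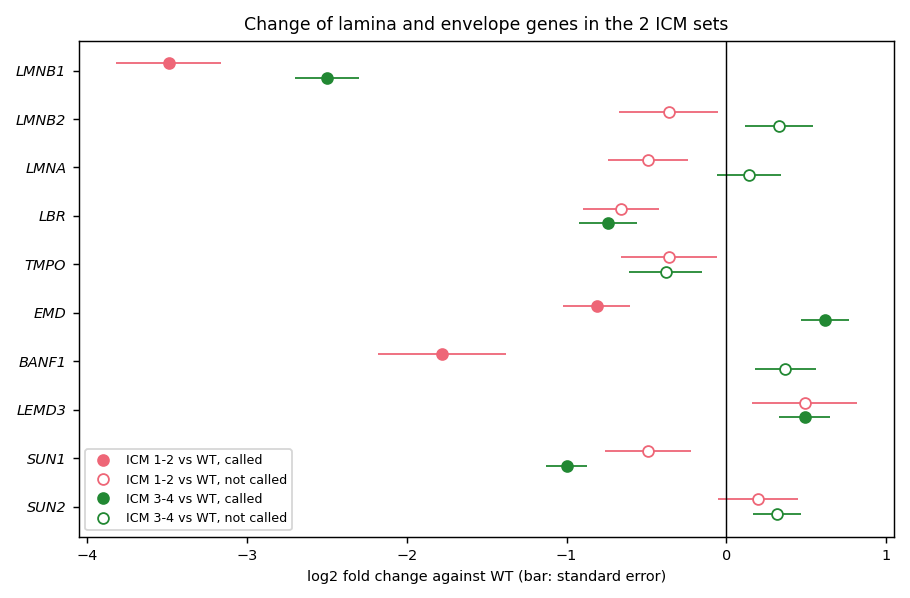
Log2 fold change against WT of the 10 genes in ICM 1-2 (red) and ICM 3-4 (green), with bars of 1 standard error and filled points for calls at an adjusted p under 0.05. LMNB1 is lower in both, at -3.49 and -2.50, and EMD and BANF1 lie on opposite sides of 0, at -0.81 and 0.62 and at -1.78 and 0.37.

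When all 10 treated libraries, knockdowns included, were set against all 4 untreated ones, 6 of the 10 genes were called, all lower, beside 25.1% of genes called lower and 47.2% in either direction. The log2 difference was -2.86 ± 0.16 for LMNB1, -0.94 ± 0.15 for SUN1 and -0.84 ± 0.14 for LBR (edgeR quasi-likelihood test, adjusted p = 1.54e-06, 0.000823 and 0.000883). These 3 were the members with no overlap, all lower, beside 8.72% of all genes lower without overlap and 17.9% in either direction. BANF1 (-0.86 ± 0.22, adjusted p = 0.00908) and EMD (-0.40 ± 0.12, adjusted p = 0.0223) were also called, but these means cover 2 sets that lay, in CPM, on opposite sides of the untreated libraries. In the first set alone BANF1 was at -1.60 ± 0.25 and EMD at -0.98 ± 0.14, and in the second alone at 0.25 ± 0.27 and 0.47 ± 0.15. LMNA was called at -0.40 ± 0.15 (adjusted p = 0.0427), with -0.58 ± 0.16 in the first set and -0.14 ± 0.18 in the second. With total counts neither EMD (-0.20, adjusted p = 0.258) nor LMNA (-0.20, adjusted p = 0.288) was called. LEMD3, at 0.52 ± 0.20 (adjusted p = 0.0515), was not called, and without ICM 1 and the first siBANF1 library it was, at 0.67 ± 0.09 (adjusted p = 7.14e-05). Without those libraries SUN2 was at -0.29 ± 0.08. Against WT alone it lay on the other side of 0, at 0.20 ± 0.25 in ICM 1-2 and 0.32 ± 0.15 in ICM 3-4, neither called. The pooled untreated mean for SUN2 includes siHMGB2, at 91.1 and 114 CPM, and the treated mean includes siSRRM2, at 61.0 and 59.6 CPM.

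LMNB1 did not differ detectably between siHMGB2 and WT, both without ICM. None of the 10 genes was called in siHMGB2 against WT, beside 0.293% of genes (49) in the edgeR fit. An unadjusted p under 0.05 was reached by 1 of the 10 (SUN2), beside 2061 of the 16719 genes tested. LMNB1 was at -0.05 ± 0.18 on the log2 scale (edgeR quasi-likelihood test, adjusted p = 0.962). No overlap was seen for 6 genes, beside 52.4% of all genes. The largest differences were in SUN2, 0.64 ± 0.15 higher (adjusted p = 0.127), TMPO at -0.49 ± 0.23 (adjusted p = 0.442) and LMNA at 0.41 ± 0.20 (adjusted p = 0.468). SUN2 passed under DESeq2 (adjusted p = 0.0234) and in a fit to the compared libraries only (adjusted p = 0.00797), which also called TMPO (adjusted p = 0.0291).

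None of the 10 genes was called in the treated libraries that carry a knockdown label, whose targets are described above. In the libraries labelled siSRRM2, against ICM 1-2, 0.178% of genes (34) were called, and 5 of the 10 did not overlap, beside 41.5% of all genes. LMNB1 was 0.94 ± 0.30 higher there on the log2 scale (edgeR quasi-likelihood test, adjusted p = 0.263; DESeq2 adjusted p = 0.0472), with 4.20 and 3.55 against 1.54 and 2.52 CPM. BANF1 was at 0.57 ± 0.39 (adjusted p = 0.608), and SUN1 and SUN2 at -0.56 ± 0.27 and -0.52 ± 0.25 (adjusted p = 0.47 for each). In the libraries labelled siBANF1, edgeR called 0% of genes (591 at an unadjusted p under 0.05, and 17 under DESeq2). The 10 genes ranged from -0.48 ± 0.24 for LBR to 0.32 ± 0.30 for TMPO, and LMNA alone did not overlap, beside 14.5% of all genes. In siCTCF against ICM 3-4 the calls were again 0% of genes (135 at an unadjusted p under 0.05, and 0 under DESeq2), with values from -0.05 ± 0.20 for LMNA to 0.13 ± 0.16 for LEMD3, and SUN2 alone did not overlap, beside 16.6%. Libraries taken in order deviated together, at r = 0.85 for ICM 1-2 and siBANF1 and 0.80 for ICM 3-4 and siCTCF. The fits above did not use such pairs, so a small shift shared by both pairs could be missed.

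Lists of related genes were counted in the same fits. Genes of cyclins, replication and mitosis that mark cycling cells were mostly lower after ICM. Of 12 listed, 9 were called lower in ICM 1-2, beside 6.86% of all genes (median log2 difference -2.69, 0.10 over all genes). Among them were MKI67 (-5.83 ± 0.93) and RRM2, a ribonucleotide reductase subunit (-4.97 ± 0.52). In ICM 3-4 the count was again 9 of 12, here beside 28% of all genes called lower (median -3.19, 0.02 over all genes). MKI67 was at -8.60 ± 0.59 and RRM2 at -5.96 ± 0.46. Both comparisons share the WT libraries.

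Other envelope proteins moved in both directions. Of 17 listed partners (further LEM proteins, torsins and their cofactors, nesprins and lamina-linked membrane proteins) 15 were tested. In ICM 1-2, 2 were called higher, the nesprin gene SYNE1 (2.04 ± 0.56) and the torsin cofactor gene TOR1AIP2 (1.66 ± 0.23), and 2 lower, PRR14 (-1.74 ± 0.25), which tethers heterochromatin to the lamina, and TMEM43 (-0.87 ± 0.22), which encodes the inner membrane protein LUMA. These counts stand beside 6.63% of all genes called higher and 6.86% lower. In ICM 3-4, where 28.6% of all genes were called higher and 28% lower, 9 were called higher, among them the torsin gene TOR1B (1.25 ± 0.13) and TMEM201 (1.24 ± 0.25), whose product SAMP1 binds the LINC complex, and 3 lower, among them TMEM43 (-1.42 ± 0.14). The list medians were 0.01 and 0.58.

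The lamin processing list holds the enzymes that farnesylate and cleave lamin precursors, with a lamin-cleaving caspase. In ICM 1-2, 1 of its 7 genes was called higher and none lower, beside 6.63% and 6.86% of all genes. In ICM 3-4 the counts were near the shares over all genes (28.6% higher and 28% lower): 2 were called higher, the protease gene RCE1 (1.46 ± 0.16) and the farnesyltransferase subunit gene FNTA (0.64 ± 0.13), and NARF, whose product binds prenylated prelamin A, was called lower (-0.67 ± 0.18). ZMPSTE24, the prelamin A protease, was at 0.02 ± 0.40 and 0.16 ± 0.19 and was named after its values were seen.

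Of 15 genes for the breakdown and resealing of the envelope at mitosis, 4 were called lower in ICM 1-2, beside 6.86% of all genes, among them the ESCRT-III genes CHMP4B (-1.46 ± 0.23) and CHMP2A (-0.85 ± 0.25). In ICM 3-4, 5 were lower, among them the mitotic cyclin gene CCNB1 (-1.48 ± 0.18) and CHMP2A (-0.61 ± 0.16), and 6 higher, among them CHMP7 (1.66 ± 0.14), which recruits ESCRT-III to the envelope, and the phosphatase subunit gene PPP2R2A (1.15 ± 0.13), beside 28% of all genes lower and 28.6% higher. Of 30 nucleoporin genes tested, NUP62 alone was called in ICM 1-2 (-0.92 ± 0.25), beside 13.5% of all genes called in either direction. ICM 3-4 called 14 higher, with RAE1 (1.72 ± 0.17) and NUP214 (1.30 ± 0.13) foremost, and 2 lower, TPR of the nuclear basket (-1.27 ± 0.39) and NUP93 of the inner ring (-0.80 ± 0.14), where 28.6% and 28% of all genes were called higher and lower.

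**Figure D5:**
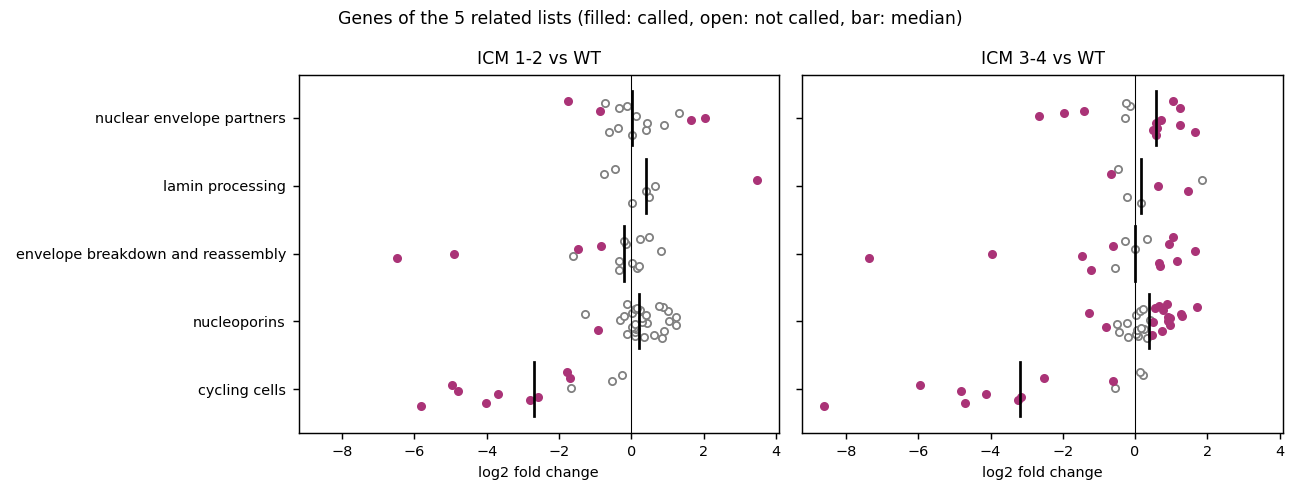
Log2 fold changes against WT of the genes tested in 5 related lists, in ICM 1-2 (left) and ICM 3-4 (right), with filled points for calls, open points for the rest and a bar at each list's median. The medians of the cycling-cell genes lie far below 0 in both panels (-2.69 and -3.19), though 2 of these genes are above 0 on the right. Of 30 nucleoporins tested, 1 is called on the left and 16 on the right, beside 13.5% and 56.6% of all genes, so the right-hand count is near the background.

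The transcripts whose log2 levels over the 14 libraries were most like those of LMNB1, among 10382 genes averaging 5 CPM or more, were UHRF1, a DNA methylation maintenance factor (r = 0.985), HNRNPA1, an RNA-binding protein (0.976), the pseudogene HMGB1P6 (0.975), the pseudogene RPL41P1 (0.969) and SNX22, a sorting nexin (0.968). For BANF1 they were ATP5PF, an ATP synthase subunit (0.974), RPS16, a ribosomal protein (0.972), HNRNPM, an RNA-binding protein (0.970), LOC107987373 (0.968) and GABARAP, an autophagy protein (0.967). The libraries share treatments, sets and depth, so these values of Pearson's r describe the order of the genes and are given without a test.

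Some counts may be affected by neighbours with overlapping exons. No source used here gives the counter's strand setting, which bears only on neighbours on the other strand. Exons of GET4 overlap 15.6% of the SUN1 exon length on the same strand, those of GTPBP1 10.5% of SUN2 and those of EIF1AD 6.0% of BANF1 on the other strand, and TIMM13 4.7% of LMNB2 on the same strand. The antisense transcript TMPO-AS1 had at most 6.49% of the TMPO counts. The BANF1 pseudogenes BANF1P2 and BANF1P3 had at most 2.27% and 3.10% of the BANF1 counts, so reads shared with those copies are uncertain.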

How the data were processed

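Total RNA of 14 IMR90 libraries was sequenced from both ends after TruSeq preparation, per the labels' protocols. The values are whole-number counts per gene symbol as deposited by the authors, 1 table per library, with no pooling. STAR 2.7.3a, HTSeq 0.12.4, DESeq2 1.36.0 and the build hg38 are named in the submitters' processing notes, and the strand setting is not given in the sources used here. The 5 lines of reads given to no gene, 12.8% to 41.8% of the reads, were left out.

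Groups were taken from the labels. After filterByExpr and TMM scaling, edgeR 4.0.16 (R 4.3.3) tested the counts by its quasi-likelihood method, with p-values adjusted by Benjamini-Hochberg over all genes and called under 0.05. Comparisons with ICM 1-2, siSRRM2 or siBANF1, and the pooled one (the mean of the 5 treated minus that of the 2 untreated groups), came from a fit to all 14 libraries (19126 genes, 7 residual degrees of freedom). The other 3 came from a fit to the 8 libraries of WT, siHMGB2, ICM 3-4 and siCTCF (16719 genes, 4 residual degrees of freedom), since replicates of ICM 1-2 and siBANF1 lay far apart. Standard errors are the size of the log2 fold change over the root of F. The script was tested on simulated data. The 10 genes, the lists and this division were chosen with earlier results of these data known. Within a list, the 2 highest and 2 lowest called genes averaging 10 CPM or more were named.

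Exon lengths (the union of all annotated exons), positions and overlaps came from GENCODE v29 by symbol. Promoters came from RefSeq on GRCh38.p14, at the first start given for each symbol. Alternatives were other scalings, no filter, DESeq2 1.42.0, other sets of libraries, a replicate block, an adjusted p under 0.01 and leaving out each library. Fits to 1 treated set, without ICM 1 and the first siBANF1 library, and a crossed block were added after seeing the data. Python 3.11.15 with numpy 2.4.6, pandas 2.3.3 and matplotlib 3.10.9 did the rest.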

Additional observations from a re-analysis of the deposited data

Results flagged for a closer look

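The change of EMD against WT differed between the 2 groups that carry the ICM label alone, by a test of the difference itself: it was 1.39 higher on the log2 scale in ICM 3-4 than in ICM 1-2 (edgeR quasi-likelihood test, adjusted p = 0.00303), with 94.5 and 85.3 against 29.1 and 35.0 CPM. The change of BANF1 differed by 2.11 in the same direction (adjusted p = 0.00669), with 118 and 91.6 against 13.5 and 32.7 CPM. For each gene both ICM 3-4 libraries were above both ICM 1-2 libraries.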

How the results depend on the processing

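Each group had 2 libraries, and each of the 10 genes had at least 67 counts in every library. Values of single genes under the alternatives were counted without siCTCF against ICM 3-4, and with BANF1 alone for siBANF1 against ICM 1-2. Of these, 619 kept their direction and side of the threshold, 47 lost the call, 27 gained one and 27 turned, and the cause was not tested. The call for LMNB1 held in all 4 leave-one-out fits of each ICM group against WT and in 14 of 14 for the pooled comparison, as did LBR and SUN1 in the pooled one, with BANF1 in 13, EMD in 10 and LMNA in 4. In a fit to WT and ICM 1-2 alone LMNB1 was at -3.42 with an adjusted p of 0.0786.

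Of the counts of genes called, ICM 1-2 against WT gave 2580, and 3883 with no filter, 4010 with DESeq2, 0 in the compared libraries only (edgeR, 3664 at an unadjusted p under 0.05), 711 at an adjusted p under 0.01 and 512 to 3482 leaving out each library (512 without WT 2, 555 without WT 1, 1598 without ICM 2, 3482 without ICM 1, each compared with 2580). ICM 3-4 against WT gave 9465, 5796 with all 14 libraries and 6401 to 8761 leaving out each library. ICM 3-4 against ICM 1-2 gave 3739, 136 in the compared libraries only, 1167 under 0.01 and 1090 to 5889 leaving out each library (1090 without ICM 3, 1532 without ICM 4, 1439 without ICM 1, 5889 without ICM 2). The pooled comparison gave 9036, 5407 under 0.01, and 6320 to 10934 leaving out each library. siHMGB2 against WT gave 49, 854 with no filter, 545 with DESeq2, 1668 in the compared libraries only, 0 with all 14 libraries (edgeR, 908 at an unadjusted p under 0.05), 0 under 0.01, and 0 without any 1 library. siSRRM2 gave 34, 1 with total counts, 814 with no filter, 727 with DESeq2, 0 in the compared libraries only (edgeR, 1488 at an unadjusted p under 0.05), 1 under 0.01 and 1 to 51 leaving out each library (1 without either siSRRM2 library, 20 without ICM 1). siBANF1 gave 0, 161 with no filter, 17 with DESeq2 and 0 to 54 leaving out each library (54 without siBANF1 2, 10 without ICM 2). siCTCF gave 0, 1 with no filter and 0 to 1 leaving out each library.

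With a replicate block in the compared libraries the counts were 1183 for ICM 1-2, 2443 for siHMGB2, 34 for siSRRM2, 1 for siBANF1 and 4 for siCTCF, and a crossed replicate block, chosen after seeing the data, gave 1071 for ICM 1-2. The numbers share no stated origin. Deviations of same-numbered libraries over 13123 genes correlated at -0.18 for WT and ICM 1-2, 0.22 for WT and siHMGB2, 0.05 for ICM 1-2 and siSRRM2, 0.85 for ICM 1-2 and siBANF1 and 0.80 for ICM 3-4 and siCTCF. The block lost EMD in ICM 1-2 (-0.73, adjusted p = 0.495) and called SUN2 (0.64, adjusted p = 0.000177), TMPO (-0.49, adjusted p = 0.0151) and LMNA (0.39, adjusted p = 0.0235) in siHMGB2.

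Among the values counted above, those that turned were the following. With total counts, TMPO was at 0.03 and LEMD3 at 0.04 in ICM 3-4 against ICM 1-2, and LMNB2 at 0.09, TMPO at 0.15 and SUN2 at 0.02 in the pooled comparison. With first-set groups only TMPO was at 0.03 in the pooled comparison, and with second-set groups only LMNB2 was at 0.24, EMD at 0.47 and BANF1 at 0.25. Leaving out each library gave -0.05 to 0.87 for LEMD3 and -0.05 to 0.38 for SUN2 in ICM 1-2 against WT. In ICM 3-4 against ICM 1-2 the ranges were -0.27 to 0.05 for LBR, -0.41 to 0.39 for TMPO, -0.44 to 0.49 for LEMD3 and -0.11 to 0.32 for SUN2. In the pooled comparison they were -0.23 to 0.02 for LMNB2 and -0.15 to 0.01 for TMPO, and in siHMGB2 -0.11 to 0.02 for LMNB1 and -0.15 to 0.33 for LMNB2. For siSRRM2 they were -0.03 to 0.29 for LBR, -0.23 to 0.58 for TMPO and -0.51 to 0.42 for LEMD3, and for siBANF1 -0.33 to 0.94 for BANF1. EMD and BANF1 between the 2 ICM groups were at 1.34 and 2.07 in those libraries only (adjusted p = 0.0998 and 0.0779), and BANF1 was lost without ICM 3 (1.85, adjusted p = 0.0526). Total counts called LMNB2, BANF1 and SUN2 higher in ICM 3-4 against WT (BANF1 0.56, adjusted p = 0.0227), and the fit to all 14 libraries lost EMD (0.58, adjusted p = 0.0623) and LEMD3 (0.44, adjusted p = 0.319) there. LEMD3 was also lost there with no filter (adjusted p = 0.0826) and in the compared libraries only (adjusted p = 0.0633). Scaling by the TMM factor moved group mean CPM by -9.2% to 12.7%.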

Other observations

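Between the 2 groups labelled ICM alone, the related genes of the nuclear envelope differed in both directions. Of 15 partners tested, 4 were called higher in ICM 3-4 than in ICM 1-2, among them PRR14 (2.76 ± 0.26 on the log2 scale, edgeR quasi-likelihood test, adjusted p = 0.000322) and TMEM201 (1.54 ± 0.32, adjusted p = 0.00985). Another 4 were called lower, among them SYNE1 (-2.36 ± 0.57, adjusted p = 0.0176) and TOR1AIP2 (-0.98 ± 0.23, adjusted p = 0.0163). Of 15 breakdown and reassembly genes, 2 were called, PPP2R2A (1.46 ± 0.25, adjusted p = 0.00439) and CHMP4B (1.40 ± 0.23, adjusted p = 0.00363), both higher. Nucleoporin genes had 3 calls higher, with POM121 (2.49 ± 0.54, adjusted p = 0.0118) and NUP214 (1.46 ± 0.29, adjusted p = 0.00758) foremost, and 2 lower, TPR (-1.34 ± 0.39, adjusted p = 0.0362) and NUP93 (-0.87 ± 0.19, adjusted p = 0.0126), of 30 tested. Of all 19126 genes, 8.53% were called higher and 11% lower in this comparison.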
